A study of Mus musculus with 9 samples.

Results

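The genes of the citric acid cycle and of mitochondrial fatty acid oxidation were compared between spontaneously beating and non-beating cells grown from mouse adipose tissue. The set was 32 named genes, 17 for pyruvate entry and the cycle and 15 for fatty acid oxidation. A gene was taken where a transcript cluster (a set of probes that the array assigns to a transcript) carried its symbol alone. All 32 had such a cluster, among 19938 genes with one. Where several did, the brightest by its mean over the 8 beating and non-beating arrays stood for the gene. The cells were the stromal vascular fraction (SVF) of subcutaneous fat from mice that the labels give as C57BL6/J, aged 10 weeks. No agent beyond the minimal growth medium was added to any group. The beating group held 4 samples of colonies picked by hand on day 28, and the non-beating group held 4 samples of the remaining cells of the dishes on that day. The round group was 1 array of 6 round cells picked and combined on day 14. Labelled cDNA was hybridised to Affymetrix Mouse Gene 1.0 ST arrays, which carry probes along the exons of each gene.

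The groups have limits as models. Each beating sample was pooled over 2 or 3 dishes seeded from the same SVF lot, and picked colonies may hold cells that do not beat. The methods name an RNA extraction kit for the picked colonies and another for unselected cells. Whether the latter served the non-beating samples is not stated, so kit and group cannot be told apart. No source states which replicate numbers share dishes or lots, and the p-values measure only the spread between these samples. Values are log2 signals, and the deposited table gives no detection call for a cluster. The median of all clusters was 3.08 to 3.17 on the 8 arrays and 3.54 on the round array. Signals include background, so a fold is a ratio of signals and not of transcript amounts. In these samples of many cells, fewer cells of a type and less RNA per cell cannot be told apart.

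The citric acid cycle oxidises acetyl-CoA in the mitochondrial matrix and passes electrons to the respiratory chain. Acetyl-CoA arrives from pyruvate through the pyruvate dehydrogenase complex, or from fatty acids, which enter the matrix as carnitine esters and are shortened by repeated rounds of beta-oxidation. Heart muscle is known for a high capacity for both routes, and several steps have alternative enzymes whose share differs between tissues.

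Most of the 32 genes did not pass the test between beating and non-beating cells. Acadl, Idh3b, Ogdh and Dlst were higher in beating cells, Suclg2 was lower, and the other 27 were not called (limma over all 33323 clusters, two-sided, Benjamini-Hochberg adjusted p under 0.05). Of all clusters, 2.82% were called higher and 3.34% lower. The 4 higher and 1 lower of 32 stand beside 940 and 1114 clusters, or 837 and 1617 after each array was centred on its median. Members were bright. All clusters were split by mean signal into 4 classes of equal size, and 25 members lay in the brightest class. Of these 4 were called higher and 1 lower, where 5.85% and 10.3% of that class were called. The median log2 difference, beating minus non-beating, was 0.11 over the members and 0.0073 over all clusters. The beating arrays all lay above the non-beating arrays in 9 members and all below in 2, against 5.98% and 8.24% of clusters. In the other 21 members the groups overlapped. Among the 27 genes that did not pass, 6 had an unadjusted p under 0.05 in limma. The share of all clusters with such a p is not given here, so that count does not set the members apart. Over all 32 the 95% confidence interval reached between 0.13 and 0.47 to either side of the difference.

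**Figure D1:**
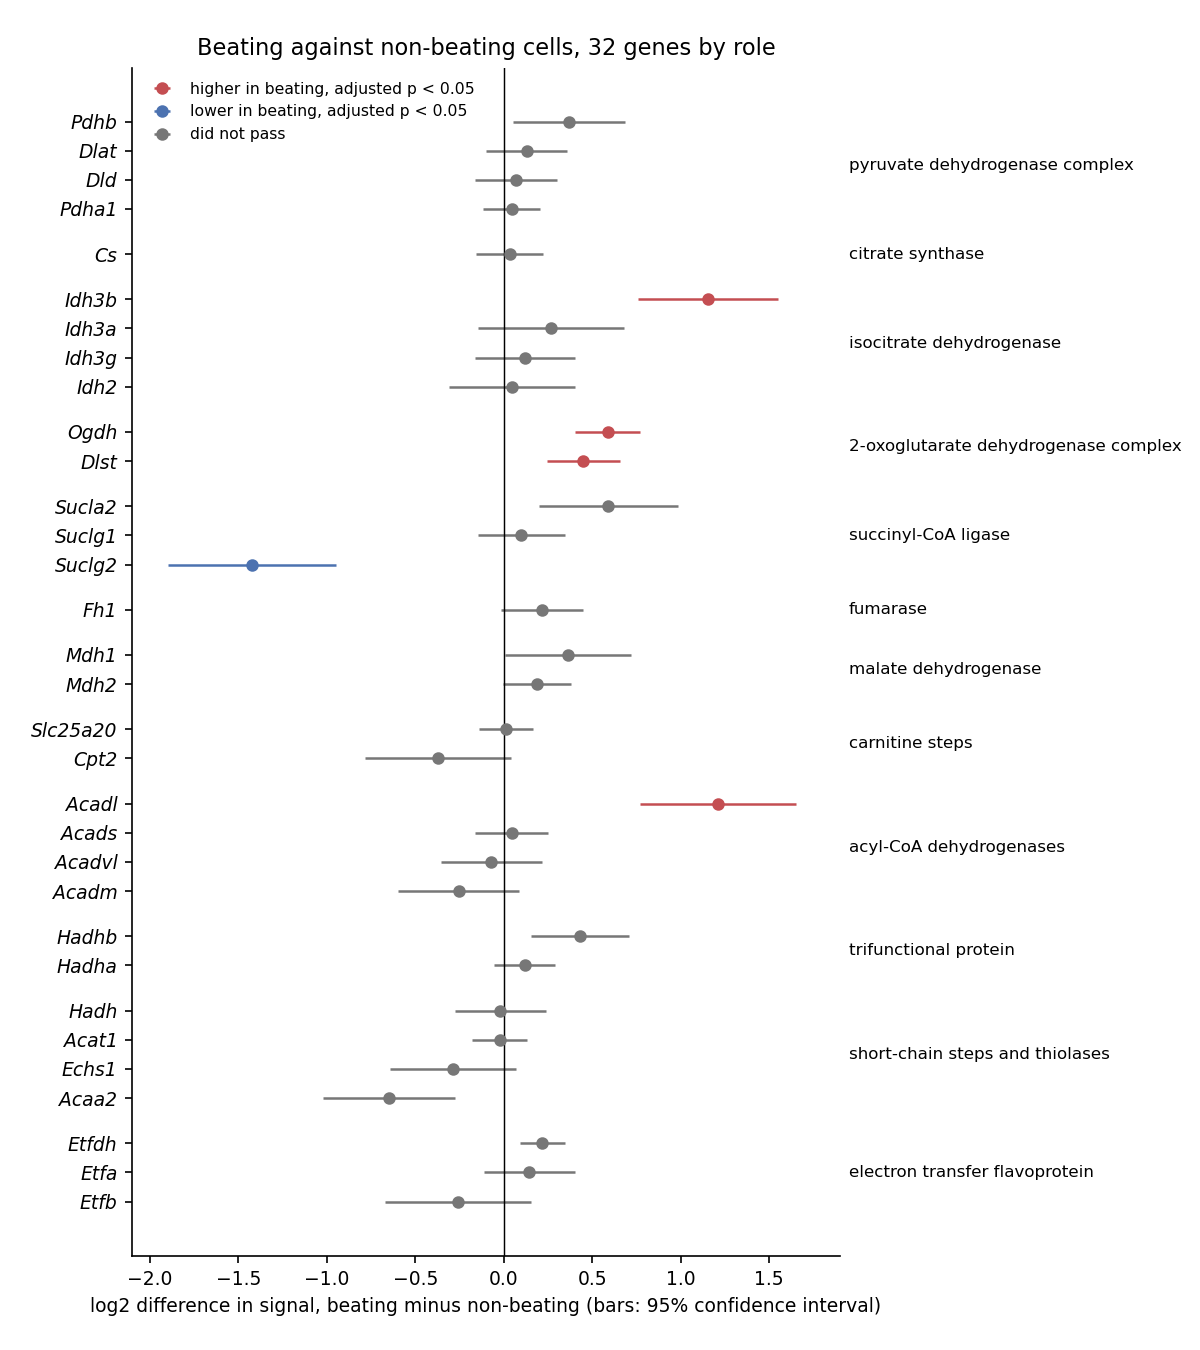
Log2 difference in signal between 4 beating and 4 non-beating samples (x axis) for each of the 32 genes (y axis), grouped by role, with 95% confidence intervals from the limma fit. Suclg2 at -1.42 lies farthest to the left and Acadl at 1.21 farthest to the right, while most intervals cross 0.

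Pyruvate entry showed no gene that passed. Pdha1 and Pdhb encode the subunits of pyruvate dehydrogenase itself, Dlat the acetyltransferase core and Dld the dihydrolipoyl dehydrogenase that this complex shares with the 2-oxoglutarate complex. Their log2 differences were 0.04 for Pdha1, 0.37 for Pdhb, 0.13 for Dlat and 0.07 for Dld. Pdhb had an unadjusted p under 0.05 in limma but an adjusted p of 0.175, and its 4 beating arrays lay above its 4 non-beating arrays. Beating replicate 1 set much of that value, since Pdhb was 5.13 on it and 4.53 to 4.56 on the other 3. Without that array the Pdhb difference was 0.22.

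Citrate synthase, encoded by Cs, joins acetyl-CoA to oxaloacetate and is often used as a measure of mitochondrial content. Its log2 signal was 7.45, 7.24, 7.24 and 7.09 on the non-beating arrays and 7.36, 7.26, 7.24 and 7.28 on the beating arrays. The groups overlapped. The log2 difference of Cs was 0.03 with a 95% confidence interval from -0.16 to 0.22 (adjusted p = 0.868 by limma), which corresponds to a ratio between 0.898 and 1.17.

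Isocitrate dehydrogenase of the cycle is built from a catalytic alpha subunit (Idh3a) and beta and gamma subunits (Idh3b, Idh3g), and only the beta subunit passed. Idh3b signal was 7.15, 7.09, 6.77 and 6.74 on the non-beating arrays. On the beating arrays it was 8.47, 7.998, 7.72 and 8.18, so that the lowest beating array stood above the highest non-beating array. Idh3b was 2.22-fold higher in beating cells, with a log2 difference of 1.15 (SE 0.17, n = 4 each, adjusted p = 0.0083 by limma). The call held in all 17 alternative settings and subsets tried, where the log2 difference ranged from 1.03 to 1.28. The log2 difference was 0.27 for Idh3a (95% confidence interval -0.14 to 0.68) and 0.12 for Idh3g (-0.16 to 0.40), and neither passed. Idh2, the mitochondrial enzyme that reduces NADP instead of NAD, differed by 0.05 (-0.31 to 0.40).

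The 250 bases before the annotated start of Idh3b, the RefSeq window of GRCm38.p6 at chr2:130284452-130284701 on the minus strand, are shown because it was called higher in every setting tried. They are printed 5′ to 3′ in the direction of transcription, and none of the motifs searched below lies in them, so no letter is in capitals.
Idh3b: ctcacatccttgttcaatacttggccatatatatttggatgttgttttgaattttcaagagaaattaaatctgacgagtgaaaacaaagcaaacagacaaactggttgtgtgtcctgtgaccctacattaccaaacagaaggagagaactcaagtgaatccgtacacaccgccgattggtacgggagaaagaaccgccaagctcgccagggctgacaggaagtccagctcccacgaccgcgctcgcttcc

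Both members of the 2-oxoglutarate dehydrogenase complex were higher, while the subunit it shares was not called. Ogdh encodes the dehydrogenase and Dlst the succinyltransferase core. Ogdh signal was 5.32, 5.14, 5.24 and 5.01 on the non-beating arrays and 5.71, 5.87, 5.77 and 5.71 on the beating arrays. The groups did not overlap, and Ogdh was 1.503-fold higher (log2 difference 0.59, SE 0.08, n = 4 each, adjusted p = 0.0058 by limma). Ogdh passed in all 16 alternatives that kept its cluster. Dlst signal was 6.07, 6.03, 5.89 and 6.18 on the non-beating arrays and 6.39, 6.42, 6.48 and 6.68 on the beating arrays. These values did not overlap either, and Dlst was 1.37-fold higher (log2 difference 0.45, SE 0.09, n = 4 each, adjusted p = 0.0257 by limma). The call of Dlst was lost in limma without beating replicate 3 (adjusted p = 0.0551) and without non-beating replicate 1, 2 or 3 (adjusted p = 0.0624, 0.0791 and 0.0692), while its log2 difference stayed between 0.39 and 0.50 without any 1 array. The class comparison test of the methods, adjusted over all clusters, did not call it either (adjusted p = 0.0643).

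Succinyl-CoA ligase showed the largest difference of all members. The enzyme makes a nucleotide triphosphate from succinyl-CoA and pairs a common alpha subunit (Suclg1) with a beta subunit that sets the nucleotide, Sucla2 for ATP and Suclg2 for GTP. The ATP form is known to be prominent in heart, skeletal muscle and brain and the GTP form in liver and kidney. Suclg2 signal was 6.52, 6.57, 6.38 and 6.08 on the non-beating arrays and 4.74, 4.65, 4.92 and 5.55 on the beating arrays. The highest beating array, replicate 4, was still below the lowest non-beating array. Suclg2 was 2.68-fold lower in beating cells, with a log2 difference of -1.42 (SE 0.21, n = 4 each, adjusted p = 0.0074 by limma). Suclg2 passed in 16 of 17 alternatives. It missed the threshold in a limma fit that paired arrays by replicate number (adjusted p = 0.0528 by limma). A further cluster of Suclg2 gave 6.51, 6.48, 6.31 and 6.02 against 4.61, 4.43, 4.95 and 5.56, a log2 difference of -1.45 (adjusted p = 0.013 by limma). The 2 clusters belong to 1 gene and are not independent evidence.

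Sucla2 signal was 7.57, 7.48, 7.63 and 7.41 on the non-beating arrays and 8.57, 8.23, 7.77 and 7.87 on the beating arrays. Each beating array stood above each non-beating array, but the beating arrays spread over a wider range. The log2 difference of Sucla2 was 0.59 (95% confidence interval 0.20 to 0.98), and it did not pass (adjusted p = 0.0883 by limma). Over the alternatives its adjusted p ranged from 0.051 to 0.197. Suclg1, the common subunit, had a log2 difference of 0.10 (95% confidence interval -0.15 to 0.35).

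The 250 bases before the annotated starts of both beta subunit genes are shown because their balance shifted most among the pairs described below. The RefSeq windows of GRCm38.p6 are chr6:95718847-95719096 on the minus strand for Suclg2, whose last bases lie inside the annotated gene, and chr14:73552536-73552785 on the plus strand for Sucla2. GC content was 64.4% and 61.2%, with 8 CpG for Suclg2 and 18 for Sucla2. No searched motif lies in either window, so all letters are in lower case.
Suclg2: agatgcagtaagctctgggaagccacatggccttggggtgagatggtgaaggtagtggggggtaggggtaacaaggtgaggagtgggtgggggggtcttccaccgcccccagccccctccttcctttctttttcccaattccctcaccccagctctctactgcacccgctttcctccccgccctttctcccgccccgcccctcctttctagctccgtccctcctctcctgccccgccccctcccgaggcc
Sucla2: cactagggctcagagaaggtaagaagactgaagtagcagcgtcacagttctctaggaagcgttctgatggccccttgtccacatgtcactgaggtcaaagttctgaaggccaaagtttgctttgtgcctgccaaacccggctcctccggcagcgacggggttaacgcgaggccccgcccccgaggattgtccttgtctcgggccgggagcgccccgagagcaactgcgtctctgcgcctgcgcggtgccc

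**Figure D2:**
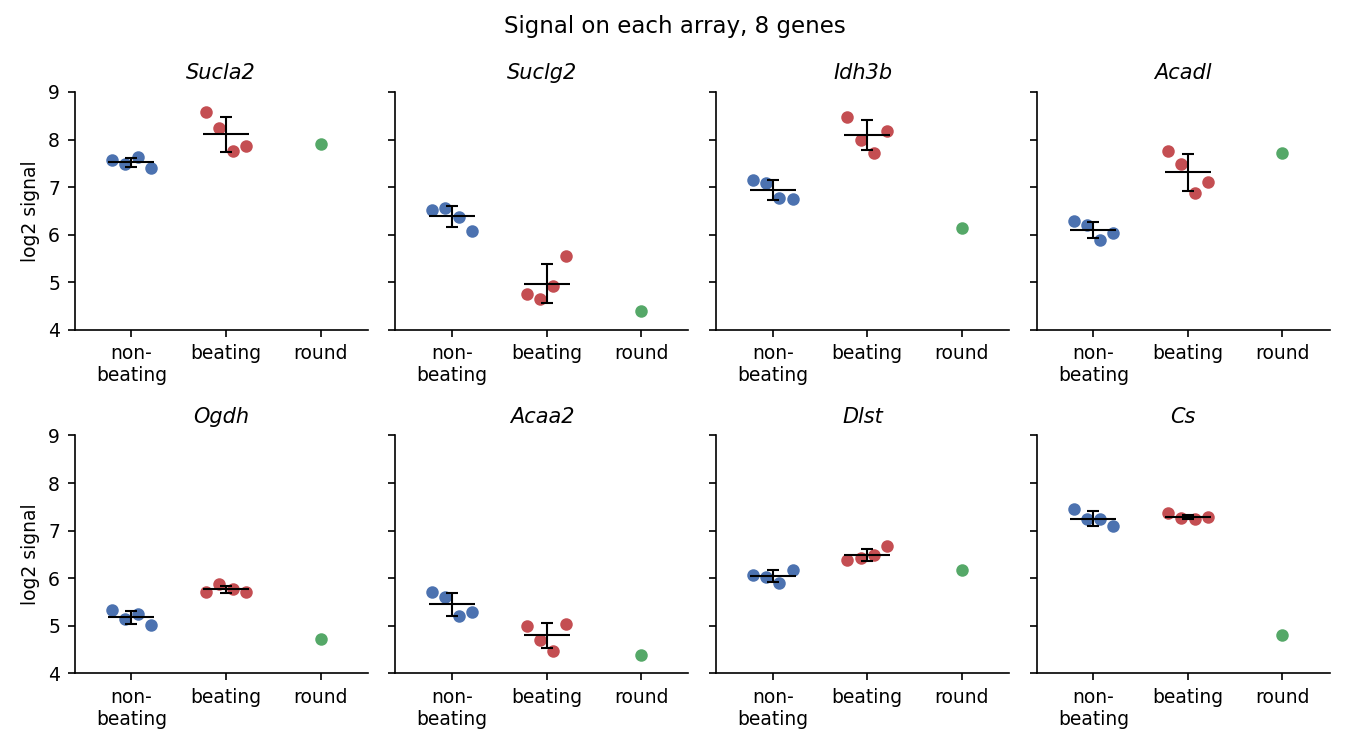
Log2 signal (y axis) on each array for 8 genes in the non-beating (4 arrays), beating (4 arrays) and round (1 array) groups, with bars for the mean and SD of the groups of 4. Suclg2 falls from 6.39 to 4.97 on average while Sucla2 stands at 7.52 and 8.11, and the means of Cs are 7.25 and 7.29.

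The last steps of the cycle did not pass. Fh1, which encodes fumarase, had a log2 difference of 0.22 (95% confidence interval -0.01 to 0.45). Mdh2, the malate dehydrogenase of the matrix, differed by 0.19 and Mdh1, the cytosolic enzyme of the malate-aspartate shuttle, by 0.36. Mdh1 beating arrays all lay above its non-beating arrays, at 7.37 ± 0.31 against 7.01 ± 0.15 (log2 signal, SD, n = 4 each), with an adjusted p of 0.232 in limma. Of the 17 genes for pyruvate entry and the cycle, 16 had a difference above 0 (13 after median centring), and 3 were called higher and 1 lower. Of all clusters 2.82% were called higher and 3.34% lower, and in the brightest class 5.85% and 10.3%. The share of all clusters with a difference above 0 is not given here, so the count of signs does not set these genes apart.

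In fatty acid oxidation, Acadl was the 1 acyl-CoA dehydrogenase gene of 4 that passed. These enzymes carry out the initial step of each round and differ in the chain length they accept, Acadvl for very long, Acadl for long, Acadm for medium and Acads for short chains. Acadl signal was 6.28, 6.19, 5.89 and 6.04 on the non-beating arrays and 7.76, 7.49, 6.87 and 7.11 on the beating arrays. The groups were well apart, and Acadl was 2.31-fold higher in beating cells (log2 difference 1.21, SE 0.19, n = 4 each, adjusted p = 0.0106 by limma). Acadl missed the threshold with the class comparison test of the methods (adjusted p = 0.0507) and passed in the other 16 alternatives. The log2 difference was -0.07 for Acadvl (95% confidence interval -0.35 to 0.21), -0.25 for Acadm (-0.60 to 0.09) and 0.05 for Acads (-0.16 to 0.25), and their groups overlapped. Acads was dim, at 3.45 ± 0.13 and 3.49 ± 0.13 (log2 signal, SD, n = 4 each), little above the array medians.

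The 250 bases before the starts of Acadl and Acadm are shown because the first gene was called and the other, a medium-chain enzyme whose gene is a known target of estrogen-related receptors, was not. They are the RefSeq windows of GRCm38.p6 at chr1:66863310-66863559 for Acadl and chr3:153944644-153944893 for Acadm, both on the minus strand. Capitals in Acadm mark the nuclear receptor half-site AAGGTCA and the NRF-1 core GCGCATGC, each read on the opposite strand, at -249 and -158 from the start. The Acadl window holds none of the searched letters.
Acadl: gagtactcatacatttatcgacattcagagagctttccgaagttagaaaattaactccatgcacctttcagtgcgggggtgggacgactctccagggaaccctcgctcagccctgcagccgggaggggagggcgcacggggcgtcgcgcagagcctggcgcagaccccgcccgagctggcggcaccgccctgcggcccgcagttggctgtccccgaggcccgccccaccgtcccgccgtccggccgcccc
Acadm: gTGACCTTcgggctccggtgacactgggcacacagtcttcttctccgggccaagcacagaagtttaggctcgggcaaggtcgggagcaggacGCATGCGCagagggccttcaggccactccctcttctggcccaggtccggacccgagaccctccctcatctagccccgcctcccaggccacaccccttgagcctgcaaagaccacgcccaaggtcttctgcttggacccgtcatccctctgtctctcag

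Other steps of fatty acid oxidation gave no call. Cpt2, which turns carnitine esters back into acyl-CoA inside the inner membrane, differed by -0.37 (95% confidence interval -0.78 to 0.04). Slc25a20, the carrier that brings those esters into the matrix, was the member with the smallest difference, 0.01 on the log2 scale. Its signal was 3.55, 3.52, 3.61 and 3.46 on the non-beating arrays and 3.48, 3.52, 3.52 and 3.68 on the beating arrays. The groups were interleaved, close to the array medians.

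The trifunctional protein, which completes the round for long chains, had log2 differences of 0.12 for Hadha (alpha subunit) and 0.43 for Hadhb (beta subunit). Hadhb beating arrays all lay above its non-beating arrays, at 6.56 ± 0.23 against 6.13 ± 0.11 (log2 signal, SD, n = 4 each), and it did not pass (adjusted p = 0.079 by limma). A further cluster of Hadhb gave a log2 difference of 0.47 (adjusted p = 0.099 by limma). For the short-chain steps, Echs1, the enoyl-CoA hydratase, differed by -0.29 and Hadh, the hydroxyacyl-CoA dehydrogenase, by -0.02. Hadh signal was 4.05, 3.96, 3.96 and 4.09 on the non-beating arrays and 3.96, 3.76, 4.30 and 3.96 on the beating arrays, with the groups overlapping.

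The thiolases did not pass either. Acaa2 encodes a thiolase of the beta-oxidation round, and its signal was 5.70, 5.60, 5.19 and 5.29 on the non-beating arrays and 4.99, 4.70, 4.46 and 5.03 on the beating arrays. Every beating array lay below every non-beating array. The log2 difference of Acaa2 was -0.65 (95% confidence interval -1.02 to -0.28, adjusted p = 0.0574 by limma). Acaa2 passed with each array centred on its median (adjusted p = 0.0422) and with dim clusters left out (adjusted p = 0.0329). Acat1, the mitochondrial acetoacetyl-CoA thiolase that also serves ketone body use, showed no such gap. Acat1 signal was 6.23, 6.17, 6.11 and 5.98 on the non-beating arrays and 6.05, 6.14, 6.12 and 6.09 on the beating arrays, a log2 difference of -0.02 (95% confidence interval -0.18 to 0.13).

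The electron transfer flavoprotein hands electrons from the acyl-CoA dehydrogenases to the respiratory chain. Its subunit genes Etfa and Etfb had log2 differences of 0.14 and -0.26. Etfdh, the oxidoreductase that receives those electrons, had a small difference with little spread, 6.52 ± 0.06 against 6.31 ± 0.04 (log2 signal, SD, n = 4 each). Its beating arrays all lay above its non-beating arrays, and its log2 difference of 0.22 did not pass (adjusted p = 0.0595 by limma). Etfdh passed with quantile normalisation (adjusted p = 0.0195), with array weights (adjusted p = 0.0417) and with the class comparison test of the methods (adjusted p = 0.042). Of the 15 fatty acid oxidation genes, 7 had a difference above 0 (5 after median centring), and 1 was called higher and 0 lower. Of the 15, 11 lay in the brightest class, where 5.85% of clusters were called higher, against 2.82% of all clusters.

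Whether partner subunits or alternative enzymes moved unequally was tested in 14 pairs on the difference of their log2 signals within each array. The difference is a balance and does not compare the amounts of 2 transcripts. In 5 pairs the beating and non-beating arrays did not overlap, each with an exact two-sided permutation p of 0.0286, the smallest that 70 assignments of 4 and 4 allow. After Benjamini-Hochberg adjustment over the 14 pairs these became 0.08. At least 9 pairs without overlap would be needed for any to pass at this number of arrays, so the adjusted value says little about a single pair. Sucla2 minus Suclg2 was 1.05, 0.91, 1.26 and 1.33 on the non-beating arrays and 3.83, 3.58, 2.85 and 2.32 on the beating arrays. The balance of the ATP over the GTP subunit was thus 4.03-fold higher in beating cells, the largest shift of the 14.

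The other 4 pairs without overlap each held a gene whose own groups did not overlap. Idh2 minus Idh1, the mitochondrial over the cytosolic enzyme, shifted by 1.24, with Idh2 itself at 0.05 and Idh1 at -1.19. Acadvl minus Acadl shifted by -1.28, Idh3a minus Idh3b by -0.89 and Acat1 minus Acaa2 by 0.63. In the other 9 pairs the groups overlapped, with adjusted exact permutation p from 0.133 to 0.83. Hadha minus Hadhb shifted by -0.31, Pdha1 minus Pdhb by -0.32, Etfa minus Etfb by 0.40 and Acadm minus Acads by -0.30. Idh3a minus Idh3g shifted by 0.15 and Dlat minus Pdha1 by 0.09. The shifts of Mdh2 minus Mdh1, Dlst minus Ogdh and Hadh minus Hadha were -0.17, -0.14 and -0.14.

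**Figure D3:**
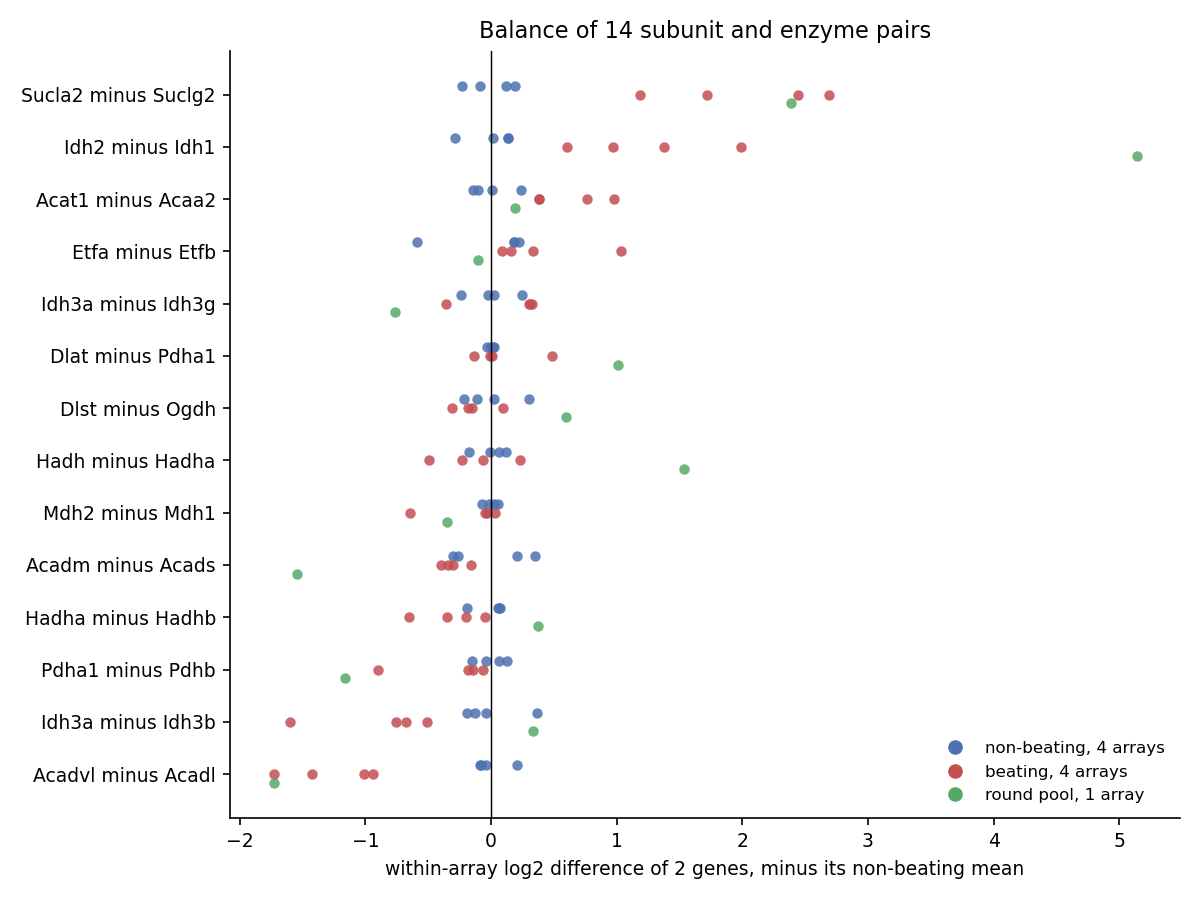
Within-array log2 difference of 2 genes, less its mean over the non-beating arrays (x axis), for 14 pairs (y axis), with 1 point per array for 4 non-beating, 4 beating and 1 round array. The beating points of Sucla2 minus Suclg2 lie right of 1 and those of Acadvl minus Acadl left of -0.9, while in 9 pairs the beating and non-beating points overlap.

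The neighbouring genes of the same pathways mostly did not pass. Of 91 related genes in 8 lists, 2 were higher, 10 lower and 79 not called, where 2.82% of all clusters were higher and 3.34% lower. Differences were above 0 in 45 of the 91, with a median of -0.001. The 10 lower calls became 3 without non-beating replicate 2 and 3 without non-beating replicate 3, and 2 with the class comparison test of the methods after adjustment. Fabp3, the heart-type fatty acid binding protein, was 4.69-fold higher (log2 difference 2.23, SE 0.27, n = 4 each, adjusted p = 0.0035 by limma). It was 5.38, 5.55, 4.76 and 4.80 on the non-beating arrays and 7.93, 7.55, 6.90 and 7.03 on the beating arrays, with no overlap. Crat, carnitine acetyltransferase, had a log2 difference of 0.54 (adjusted p = 0.0311 by limma), and its call was lost without any 1 of the arrays except beating replicate 2, with adjusted p up to 0.0907. These 2 were the only calls among 12 genes for fatty acid uptake, activation and carnitine esters. Of those 12, 5 had a difference above 0 and 7 below, with a median of -0.07.

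Among 8 genes for other steps and subunits of the cycle, succinate dehydrogenase included, Idh1 alone passed. Idh1, the cytosolic isocitrate dehydrogenase that supplies NADPH, was 8.56, 8.29, 8.17 and 8.18 on the non-beating arrays and 6.93, 6.81, 7.37 and 7.34 on the beating arrays. It was 2.28-fold lower (log2 difference -1.19, SE 0.15, n = 4 each, adjusted p = 0.0044 by limma). Of 10 genes for pyruvate entry and anaplerosis, Slc16a1, a monocarboxylate transporter, was lower by a log2 difference of -0.98 and Me1, the cytosolic malic enzyme, by -0.59. Of 10 shuttle and carrier genes, Slc25a1, the citrate carrier, was lower at -0.51. Idh1, Me1 and Slc25a1 are known for roles in supplying NADPH and citrate to fat synthesis in the cytosol.

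Of 14 other mitochondrial beta-oxidation genes, Acadsb, a dehydrogenase of short branched chains, fell by 1.24 on the log2 scale and Acot2, an acyl-CoA thioesterase, fell by 0.61. Of 11 peroxisomal genes, Abcd3, a peroxisomal acyl-CoA transporter, fell by 0.73 and Hsd17b4, the peroxisomal bifunctional enzyme, fell by 0.30. Of 11 genes for ketone bodies and branched-chain amino acids, Oxct1, which activates ketone bodies, fell by 0.54. Of 15 mitochondrial genes outside fuel oxidation, the chaperonin gene Hspd1 fell by 0.53. None of 77 mitochondrial ribosomal protein genes was called by limma, and their median log2 difference was 0.03. An unadjusted p under 0.05 was found in 16, again without the share of all clusters beside it. The calls of Slc16a1, Slc25a1, Acot2, Abcd3, Hsd17b4, Oxct1 and Hspd1 were each lost without 4 to 8 of the arrays, left out singly (highest adjusted p 0.127), and that of Acadsb without non-beating replicate 3 (adjusted p = 0.0518). Those of Fabp3, Idh1 and Me1 held without any 1 array.

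Markers of several cell types moved with the groups. Of 9 muscle genes 8 were higher, and the mean of the list was 3.68 to 4.04 on the non-beating arrays and 8.64 to 8.88 on the beating arrays. The largest muscle difference was 6.88 in Neb and the smallest 0.38 in Ckm, the muscle creatine kinase gene, which did not pass. Of 8 white adipocyte genes 3 were lower, from -2.13 in Lpl to 0.21 in Lep, and the list mean was 4.84 to 5.18 against 4.02 to 4.38. Of 6 fibroblast genes 3 were lower, from -1.96 in Thy1 to 0.46 in Col1a1, with list means of 8.08 to 8.78 against 7.20 to 7.56. Of 6 macrophage genes 1 was lower, from -2.72 in Cd68 to -0.29 in Itgam, with list means of 4.80 to 6.17 against 3.18 to 4.71. No brown adipocyte marker of 4 passed, and their list mean stayed at 2.56 to 2.70 and 2.67 to 3.06, below the array medians. Their differences ran from -0.18 in Prdm16 to 0.56 in Dio2. No endothelial marker of 3 was called (Cdh5 -0.50 to Pecam1 -0.17), with list means of 4.91 to 6.18 against 3.47 to 6.36. Beating replicate 1 stood apart from the other beating arrays there, with Cdh5, an endothelial cadherin, at 4.15 against 6.98 to 8.37 and Pecam1 at 3.41 against 5.39 to 6.33. Its Cd68 was 4.30 against 5.95 to 7.45. No cycling marker of 2 was called (Top2a -0.23 to Mki67 -0.20), with list means of 3.71 to 4.33 against 3.11 to 4.51. The part of these cell types in the differences of the members was not tested.

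The order of the arrays within each group varied among the members. Beating replicate 1 was the highest beating array in 18 of the 32 members, against 30.6% of all clusters, and the lowest in 8, against 24.4%. Beating replicate 3 was the lowest in 16 members, against 21.8% of all clusters. Among the non-beating arrays replicate 1 was the highest in 16 members, against 25.6%, and replicate 4 the lowest in 18, against 26.7%. Beating replicate 1 was also the beating array with the lowest signals of Cdh5, Pecam1 and Cd68, and the part of those cells in its member values was not tested. The mean of the 32 genes was 6.26, 6.14, 5.999 and 6.16 on the beating arrays and 6.11, 6.08, 5.997 and 5.94 on the non-beating arrays, so the list as a whole overlapped between groups. In Acadl, Idh3b and Sucla2 beating replicate 1 was the highest and replicate 3 the lowest.

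The round cell pool, 1 array with no replicate and no test, was low in most members. Its value lay below all 8 other arrays in 24 of the 32 genes, against 24.4% of clusters, and above all 8 in Idh3g and Acads, against 46.4% of clusters. In the brightest class low values were common over the whole array. Of the 25 members in the brightest class 18 were below all 8 arrays, as were 72.7% of all clusters of that class. The median of round minus the non-beating mean was -1.29 over all clusters of the brightest class, and 10 of its 25 members lay below that. It was 0.19 over all clusters of the next class. The members Acadm, Hadh, Idh2, Idh3a, Pdhb and Slc25a20 of that next class were below all 8 arrays, and Acads was above. The share of that class below all 8 is not given here, so these places do not set the members apart. Over the 32 genes, which span both classes, the median was -0.64. Against the beating mean the median over the 32 genes was -0.65. The scale decided how many members were low, 27 after each of the 9 arrays was centred on its median and 15 after quantile normalisation, with 1 and 10 above all 8.

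Single genes of the round pool differed in place. Dld was lowest against the non-beating mean, at 4.03 and a difference of -3.65, followed by Cs at 4.80 (-2.46), Etfdh at 3.90 (-2.41), Hadhb at 3.95 (-2.18) and Suclg2 at 4.38 (-2.0). Those 5 stayed below all 8 arrays after centring, and all but Suclg2 after quantile normalisation. The further cluster of Hadhb was less low in the round pool, at 5.03 against 5.95 to 6.28 on the non-beating arrays. The further cluster of Suclg2 was 3.95 against 6.02 to 6.51. Acadl stood at 7.72, above the 4 non-beating arrays by 1.62 on average and within the beating range of 6.87 to 7.76. Sucla2 at 7.91 also lay within its beating range. Idh3b did not, at 6.14 against beating values from 7.72 upward. Sucla2 minus Suclg2 was 3.52 in the round pool, within the beating range. As deposited, Dlst, Etfa, Etfb and Acadvl lay within the range of the 8 arrays. After centring Dlst, Etfa and Acadvl were below all 8, and after quantile normalisation Dlst, Etfa, Etfb, Acadvl, Acadl and Sucla2 were above all 8.

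**Figure D4:**
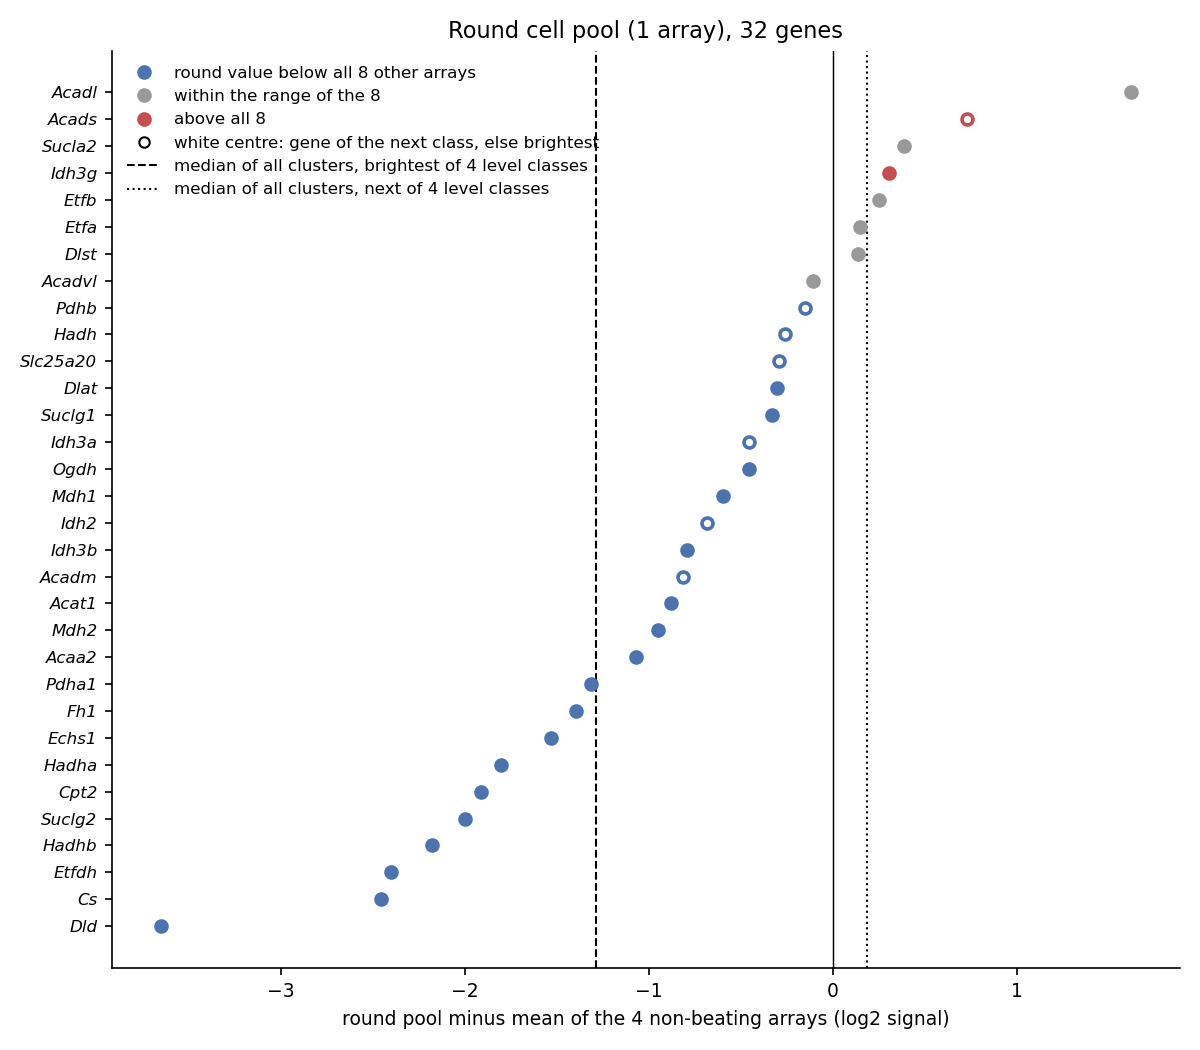
Log2 signal of the round cell pool (1 array of 6 cells) minus the mean of 4 non-beating arrays (x axis) for the 32 genes (y axis), coloured by whether the round value lies below, within or above the 8 other arrays. The dashed line at -1.29 and the dotted line at 0.19 are medians over all clusters of the brightest and the next of 4 level classes, and white centres mark the 7 genes of the latter.

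The promoters of the members were described without a test. RefSeq windows of GRCm38.p6, from 250 bases before to 50 after an annotated start, were given for 29 of the 32 genes as 34 windows, and none for Acaa2, Acat1 and Idh3a. Median GC content was 60.3% in the member windows and 52.7% in all 32851 windows, with a median of 19 and 7 CpG. The estrogen-related receptor site TCAAGGTCA was in none of the 34 and in 0.423% of all. Its core AAGGTCA was in 5.88% of member windows, those of Acadm and Ogdh, and in 4.72% of all. The NRF-1 core GCGCATGC was in 14.7% of member windows, from Acadm, Etfa, Etfdh and Ogdh, and in 2.71% of all. The MEF2 box was in none and in 0.557% of all, and the E-box CAGCTG was in 2.94%, a Dld window, and in 16.3% of all. Both strands were searched, and AAGGTCA lies within TCAAGGTCA. Of the members called higher, only Ogdh held any of these letters, in windows of alternative starts.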

How the data were processed

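Mouse SVF samples were read on Affymetrix Mouse Gene 1.0 ST arrays after amplification of total RNA with the Ovation Pico system. The deposited values are log2 signals of 33323 transcript clusters on 9 arrays. According to the methods, raw data were imported into BRB-ArrayTools 4.6.0, log2-scaled and normalised-mean-centred by the authors. The method that made the deposited table is not given in the sources used here, and no cluster is centred in it. A normalisation that ties arrays together can hide a shift common to most genes. Equal values were common. Of all clusters, 48.9% held the same value (to 6 decimals) on 2 or more of the 8 arrays, as did 9 members.

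Symbols came from the platform annotation and were updated by gene number through a RefSeq table of GRCm38.p6 for 21698 of the 21789 clusters with 1 symbol. Another 1621 clusters carry several symbols and 9913 none, and neither was named. Some listed related genes and markers are not analysed here. The 4 beating and 4 non-beating arrays entered a limma fit (version 3.58.1, R 4.3.3, lmFit with eBayes, 6 residual and 2 prior degrees of freedom, two-sided) with Benjamini-Hochberg adjustment over all clusters. Pairs were tested with an exact permutation test in Python 3.11.15. The round array entered no fit. The number of arrays limits the precision. On simulated data over 33323 clusters, the fit recovered 39 of 100 clusters given a log2 change of 0.5 and 82 of 100 given a change of 1. There was 1 false call. Only those clusters were changed there, with independent normal noise, whereas 940 and 1114 clusters were called higher and lower in the arrays. The adjustment was therefore stricter in the simulation, and its recovery does not measure the power of this comparison.

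The members, lists and pairs were chosen with earlier results of these data known. By rule every member was named with its log2 difference, and values per array were given for the 6 largest and 4 smallest differences and any member called lower. Up to 4 called genes of each related list and the highest and lowest marker of each type were named. Values per array of Dlst, Fabp3, Idh1 and of the Sucla2 and Suclg2 balance were added after their values were seen. Alternatives covered the normalisation, filters, variance model, array weights, the class comparison test of the methods (pooled variance), a replicate block, the cluster choice and leaving out each array. Same-numbered beating and non-beating arrays did not deviate together, with correlations from -0.012 to 0.034.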

Additional observations from a re-analysis of the deposited data

Results flagged for a closer look

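Of 88 groups of 4 arrays examined, in the 32 members and the 12 named related genes, 7 held an array whose gap to its nearest neighbour took up most of the range of the group. Among independent normal values without ties about 1 group in 20 would hold such an array. Equal values were common here, so that rate need not apply and the count is not read against it. In beating cells this was Pdhb, at 5.13 on replicate 1 and 4.53 to 4.56 on the others (gap 0.953 of the range). In non-beating cells replicate 1 stood apart in Etfb, at 6.52 against 5.90 to 5.94 (0.943), in Abcd3, at 7.15 against 6.95 to 6.98 (0.864), and in Oxct1, at 6.48 against 6.05 to 6.11 (0.847). Non-beating replicate 2 stood apart in Hadha, at 7.40 against 7.23 to 7.26 (0.862). In Idh2, at 4.94 against 4.98 (0.949), and in Dld, at 7.70 against 7.68 (1), the other 3 non-beating arrays held equal or nearly equal values, so these gaps are small on the log2 scale.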

How the results depend on the processing

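Of 521 alternative values of the 32 member differences, 489 kept direction and side of the threshold, 7 lost a call, 5 gained one and 20 changed sign, all of the last in genes that did not pass. With a 1.5-fold prefilter modelled on the methods, which kept 7976 clusters here and need not be the set the study used, 2 members were higher (Acadl and Idh3b), since Dlst and Ogdh are not in it as built here, and 5 related genes were lower and 1 higher. Members called lower numbered 2 after median centring and 2 with dim clusters left out, where Acaa2 joined Suclg2. A further limma fit took replicate number as a block (replicate block), which pairs same-numbered arrays. The methods took non-beating cells from the dishes of the picked colonies, but no source ties the numbers to shared dishes. In that fit 4 members were higher and 0 lower (Suclg2 adjusted p = 0.0528 by limma). There 1 related gene was higher and 3 lower, and 645 clusters were lower. The class comparison test of the methods, adjusted over all clusters, called 491 clusters higher and 375 lower, and 1 and 2 related genes. Related genes called higher were 5 with dim clusters left out and 4 with array weights. Without 1 array in turn, members higher ranged from 3 to 4, members lower stayed at 1, related genes ranged from 1 to 2 higher and 3 to 10 lower, and clusters from 569 to 914 higher and 438 to 1023 lower. The median of round minus non-beating over the members was -1.10 after centring and -0.18 after quantile normalisation, and of round minus beating -1.05 and -0.39. The cause of these shifts was not tested.

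Signs turned only where a difference was close to 0. Median centring gave -0.025 for Cs, -0.0095 for Idh2, -0.013 for Pdha1, -0.011 for Acads and -0.044 for Slc25a20. Quantile normalisation gave -0.0082 for Acads, -0.047 for Slc25a20 and 0.058 for Acat1. Array weights gave -0.0090 for Idh2 and 0.032 for Hadh. Leaving out 1 array gave ranges of -0.022 to 0.098 for Cs, -0.10 to 0.17 for Idh2, -0.027 to 0.13 for Dld, -0.016 to 0.10 for Acads, -0.17 to 0.019 for Acadvl, -0.12 to 0.059 for Hadh, -0.030 to 0.038 for Slc25a20, -0.071 to 0.013 for Acat1 and -0.045 to 0.16 for Dlat minus Pdha1. For the pairs, 153 of 154 alternative values kept their direction. A sign-flip test over replicate numbers cannot go below an exact p of 0.125 and a test with 1 array left out not below 0.0571.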
